A study of Mus musculus with 5 samples.

Results

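A set of 8 pigment-cell genes was followed in RNA of sorted dermal group 2 innate lymphoid cells (dILC2s). The 8 genes, Dct, Tyr, Tyrp1, Pmel, Mlana, Slc45a2, Mitf and Sox10, were chosen by symbol among the 47729 genes of the count table, and all 8 had 1 row each. The cells came from the skin of female C57BL/6 mice aged 8 to 13 weeks, were sorted as viable CD45+ cells with high CD90 and without CD2 or CD3, and were not stimulated after sorting. The 3 WT libraries (pools 5, 6 and 13) were set against 2 libraries labelled Rag1-/- (pools 2 and 7), by their label from mice deficient in Rag1, a gene without which T and B cells do not mature. By the labels the libraries held cells of 30 WT and 16 Rag1-/- mice, whereas the methods give pools of 10 WT and of 9 Rag1-/- mice, and the cell type field calls the libraries labelled Rag1-/- type 3 cells although their titles call them dILC2s.

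Melanocytes are neural crest-derived cells that make melanin inside melanosomes and hand it to keratinocytes. Tyrosinase and its relatives make the pigment, PMEL forms the fibrils on which it is laid down, and the transcription factors MITF and SOX10 drive their genes. Mouse trunk skin holds its pigment cells mainly in hair follicles, which may not extend to the ear skin that the study processed for flow cytometry. Innate lymphoid cells are not known to make pigment.

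Library totals ranged from 32939428 to 39477243 counts in WT and were 8050562 in pool 2 and 38922750 in pool 7, so that 3 counts stood for 0.373 counts-per-million (CPM) in pool 2 and for at most 0.0911 CPM in the other libraries. The few reads of Rag1 itself went against the labels, with 4, 0 and 5 in WT (pools 5, 6 and 13, in this order throughout). The libraries labelled Rag1-/- (pools 2 and 7) had 5 and 48 reads. The difference was not called (log2 fold change 3.53, SE 1.03, adjusted p = 0.0866 by edgeR), and the deleted part of the gene is not given in the sources used here. A gene was called when edgeR's quasi-likelihood test gave a Benjamini-Hochberg adjusted p below 0.05 and an absolute log2 fold change above 1. Of 19011 genes tested, 3.57% were called higher and 2.16% lower in the libraries labelled Rag1-/-. Genes of other cells of the skin moved with the groups. The summed level of 20 keratinocyte genes was 33214 to 48033 CPM in WT and 8328 and 19112 CPM in pools 2 and 7, with 9 of 20 called lower, and none of the 20 was at 0. The summed level of 20 leukocyte genes was 934 to 2299 CPM in WT against 7455 and 6411 CPM, with 14 of 20 called higher, and that of 15 ILC2 genes was 1587 to 3088 CPM against 7352 and 5223 CPM, with 5 of 15 called higher. Within these lists, Krt14, a basal keratin, lay at 5510 ± 535 CPM (SD, n = 3) in WT and 2420 ± 889 CPM (SD, n = 2) in those labelled Rag1-/- (log2 fold change -1.15, adjusted p = 0.0840 by edgeR). Ptprc, which encodes CD45, lay at 295 ± 155 CPM (SD, n = 3) and 900 ± 391 CPM (SD, n = 2; log2 fold change 1.63, adjusted p = 0.103 by edgeR).

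The stretches upstream of 3 enzyme genes are shown because they hold the E-box CATGTG, the core of the M-box that MITF is known to bind. They are the 250 bases before the RefSeq start on GRCm38.p6, written along the gene's strand, and capitals mark CATGTG on either strand, which reads CACATG where the motif lies on the opposite strand. The window of Dct is chr14:118052247-118052496 on the minus strand, that of Tyr is chr7:87493513-87493762 on the minus strand, and that of Tyrp1 is chr4:80833963-80834212 on the plus strand.
Dct: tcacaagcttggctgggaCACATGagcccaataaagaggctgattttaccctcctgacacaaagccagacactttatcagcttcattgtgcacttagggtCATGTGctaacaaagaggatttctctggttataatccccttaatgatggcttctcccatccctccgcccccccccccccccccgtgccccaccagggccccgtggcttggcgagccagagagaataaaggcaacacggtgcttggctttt
Tyr: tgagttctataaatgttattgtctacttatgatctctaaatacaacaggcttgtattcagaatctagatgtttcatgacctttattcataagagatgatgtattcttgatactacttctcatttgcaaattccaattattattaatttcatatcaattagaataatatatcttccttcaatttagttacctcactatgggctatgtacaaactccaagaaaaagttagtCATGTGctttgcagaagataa
Tyrp1: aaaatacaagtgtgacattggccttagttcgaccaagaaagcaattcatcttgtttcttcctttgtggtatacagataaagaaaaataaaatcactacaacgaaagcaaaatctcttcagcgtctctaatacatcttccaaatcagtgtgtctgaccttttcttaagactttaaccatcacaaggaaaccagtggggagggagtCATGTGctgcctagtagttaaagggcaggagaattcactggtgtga
Dct held the motif at 2 places, 232 bases (on the opposite strand) and 150 bases before the start, Tyr 21 bases and Tyrp1 46 bases before it. The same 3 genes held the longer TCATGTG. Over all 32851 RefSeq promoter windows of the mouse, from 250 bases before to 50 bases after a start, CATGTG was in 14.2% and TCATGTG in 3.77%, on either strand. The 3 windows of Mitf did not hold the motif. The palindromic E-box CACGTG was in 7.15% of all windows and in none of the 6 windows of these 4 genes. The RefSeq table held windows of 4 of the 8 genes. A match is a string of letters and not a measured binding site.

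RNA of all 8 genes was present in the sorted material, at a few CPM. In WT the enzyme, melanosome and regulator genes lay between 0.456 CPM for Slc45a2 and 15.2 CPM for Sox10, and all 8 passed the filter on low counts. Per kilobase of exon the WT level was highest for Pmel, at 5.37 ± 1.54 CPM per kb (SD, n = 3), followed by Sox10 at 4.99 ± 1.20 CPM per kb and Tyrp1 at 2.84 ± 0.632 CPM per kb. Mitf, Mlana and Dct followed with mean levels of 2.41, 2.17 and 2.13 CPM per kb, and Tyr and Slc45a2 were lowest, at 0.342 and 0.153 CPM per kb. Between neighbours in this order the 3 WT libraries did not overlap only for Sox10 above Tyrp1 and for Dct above Tyr. The order depended on the length used. With the transcript lengths given in the deposited table Mitf came first, at 7.08 CPM per kb, before Pmel at 5.78, Sox10 at 5.61 and Dct at 5.55 CPM per kb. On the same exon scale, WT Krt14 lay at 3134 ± 305 and Ptprc at 16.1 ± 8.45 CPM per kb (SD, n = 3).

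**Figure D1:**
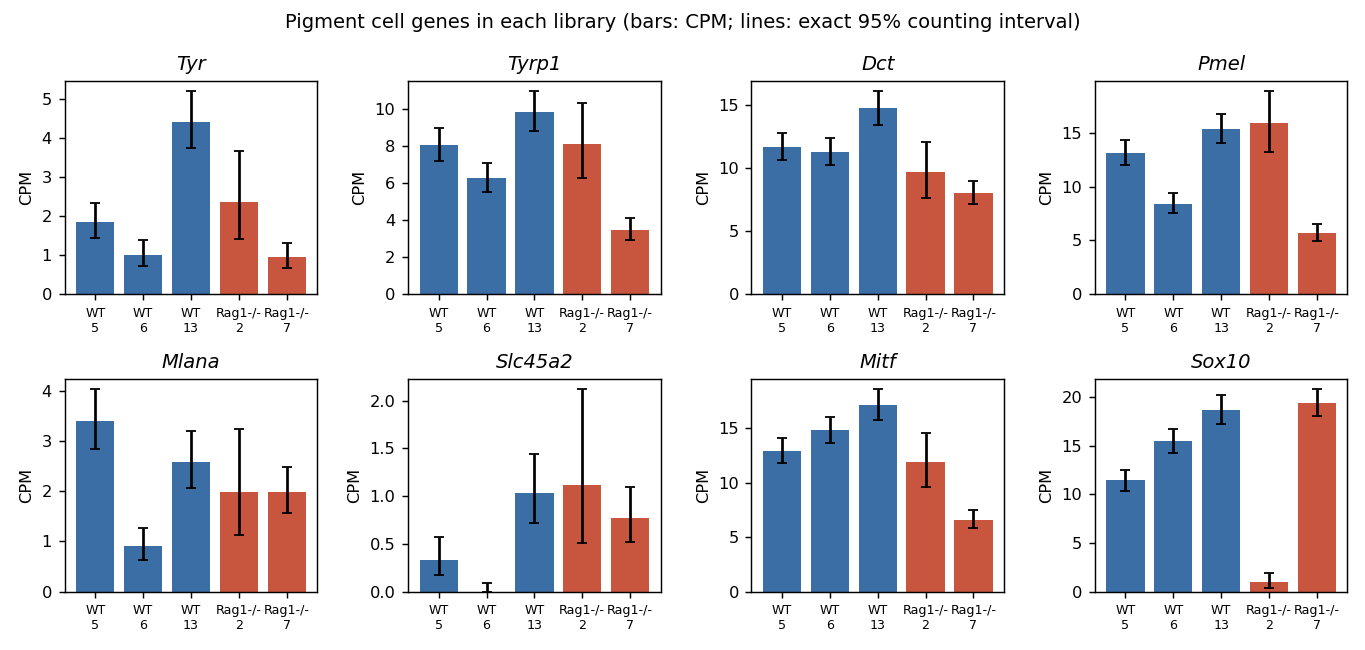
Level of each of the 8 genes in CPM in every library, 1 panel per gene, for WT pools 5, 6 and 13 (blue bars) and pools 2 and 7 labelled Rag1-/- (red bars), with exact 95% intervals of the counts as lines. Both red bars lie below the blue bars for Dct and Mitf, the groups overlap for the other 6 genes, and Sox10 is near 1 CPM in pool 2 alone.

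None of the 8 genes was called between the groups. The count was 0 of 8 by edgeR, by DESeq2 and by limma, and none of the 8 had an unadjusted p below 0.05 by edgeR. The fitted log2 fold change (labelled Rag1-/- over WT) was below 0 for 7 of 8 genes, with a median of -0.47 against 0.02 over all genes tested, on the scaling that uses all genes (TMM). When the libraries were scaled on the leukocyte genes instead, all 8 had a log2 fold change below 0 and 7 were called lower, where 66.2% of all genes tested were. When they were scaled on the keratinocyte genes all 8 lay above 0 and 3 were called higher, where 59.6% of all genes tested were. Both libraries labelled Rag1-/- lay below every WT library for 2 of the 8, Dct and Mitf, where 24.0% of all genes tested did so, and above every WT library for 0 of the 8, where 21.9% did. In such bulk libraries, fewer pigment cells and less of a transcript per pigment cell cannot be told apart.

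Among the enzymes, Dct (ENSMUSG00000022129, chr14:118012792-118052246, minus strand), the tautomerase that acts on dopachrome, was counted 453, 444 and 485 times in WT pools 5, 6 and 13, compared with 78 and 312 times in pools 2 and 7. These were levels of 11.7, 11.2 and 14.7 CPM against 9.69 and 8.02 CPM. The WT libraries were all higher than both libraries labelled Rag1-/-, and the group means were 12.5 ± 1.90 CPM (SD, n = 3) and 8.85 ± 1.18 CPM (SD, n = 2). The difference did not pass the test (log2 fold change -0.48, SE 0.26, adjusted p = 0.292 by edgeR). Its sign was kept whichever single library was left out, with values from -0.57 to -0.35.

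Tyrp1 (ENSMUSG00000005994, chr4:80834123-80851719, plus strand), a tyrosinase relative that acts late in eumelanin synthesis, had levels of 8.02, 6.23 and 9.81 CPM in WT and 8.07 and 3.47 CPM in pools 2 and 7. Pool 7 was lowest and pool 2 lay within the WT range, so the groups overlapped (log2 fold change -0.49, SE 0.42, adjusted p = 0.515 by edgeR). Tyr (ENSMUSG00000004651, chr7:87424771-87493512, minus strand), the rate-limiting enzyme of melanin synthesis, was scarcer, with 72, 40 and 146 reads in WT, compared with 19 and 37 reads in pools 2 and 7. Its levels were 1.86, 1.01 and 4.43 CPM against 2.36 and 0.951 CPM. WT pool 13 stood above the other libraries, pool 7 was lowest by a narrow margin, and the groups overlapped (log2 fold change -0.60, SE 0.73, adjusted p = 0.665 by edgeR). Without WT pool 13 the log2 fold change of Tyr was 0.16.

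Among the melanosome genes, Pmel (ENSMUSG00000025359, chr10:128706258-128720238, plus strand), which encodes the fibril protein, was counted 509, 333 and 506 times in WT, compared with 128 and 222 times in pools 2 and 7. Its levels were 13.1, 8.44 and 15.4 CPM against 15.9 and 5.70 CPM. The pools labelled Rag1-/- were the highest and the lowest of the 5 libraries, and the means of 12.3 ± 3.53 CPM (SD, n = 3) and 10.8 ± 7.21 CPM (SD, n = 2) lay within that spread. The log2 fold change was -0.19 (SE 0.46, adjusted p = 0.836 by edgeR), and without pool 7 it was 0.31. Dgka, on the opposite strand, overlaps the 3′ end of Pmel, and no strand setting of the counting is given in the sources used here.

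Mlana (ENSMUSG00000024806, chr19:29697921-29708448, plus strand), which encodes the melanosomal antigen MART-1, had levels of 3.40, 0.912 and 2.58 CPM in WT and 1.99 and 1.98 CPM in pools 2 and 7. The 2 libraries labelled Rag1-/- lay close together inside the WT range (log2 fold change -0.17, SE 0.59, adjusted p = 0.896 by edgeR), and without WT pool 5 the log2 fold change was 0.23. Slc45a2 (ENSMUSG00000022243, chr15:11000721-11029233, plus strand), a melanosomal transporter, was counted 13, 0 and 34 times in WT, compared with 9 and 30 times in pools 2 and 7. The 0 counts in WT pool 6 allow a level of up to 0.0760 CPM when taken as 3 counts, or 0.0934 CPM by the exact 95% interval. Both libraries labelled Rag1-/-, at 1.12 and 0.771 CPM, overlapped the WT libraries, at 0.335, 0 and 1.03 CPM (log2 fold change 1.07, SE 1.28, adjusted p = 0.654 by edgeR).

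Of the regulators, Mitf (ENSMUSG00000035158, chr6:97807052-98021349, plus strand), the transcription factor named for the microphthalmia mutation, was counted 501, 585 and 565 times in WT, compared with 96 and 257 times in pools 2 and 7. Its levels were 12.9, 14.8 and 17.2 CPM against 11.9 and 6.60 CPM. Both libraries labelled Rag1-/- lay below every WT library, pool 2 only just, and the log2 fold change was -0.69 (SE 0.31, unadjusted p = 0.0636, adjusted p = 0.216 by edgeR). Mitf is also transcribed in mast cells and other cells, and the counts do not separate its promoters. Its closest relatives, Tfe3, Tfeb and Tfec, were not called either. Tfeb lay at 22.3 to 24.9 CPM in WT and at 32.8 and 32.6 CPM in pools 2 and 7 (log2 fold change 0.52, adjusted p = 0.133 by edgeR), and Tfe3 had a log2 fold change of -0.07. Over the 4 genes of the family the median log2 fold change was 0.17, with 0 of 4 called.

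Sox10 (ENSMUSG00000033006, chr15:79154913-79164490, minus strand), a transcription factor of melanocytes and of Schwann cells, the glia of peripheral nerves, was counted 444, 611 and 617 times in WT, compared with 8 and 756 times in pools 2 and 7. Its levels were 11.4, 15.5 and 18.7 CPM against 0.994 and 19.4 CPM. Pool 2 was far below and pool 7 above every WT library, and the test over both gave a log2 fold change of -0.46 (SE 0.87, adjusted p = 0.795 by edgeR). The value rested on which pool was kept. Without pool 7 it was -3.99 (adjusted p = 0.0136 by edgeR), with pool 2 as a lone sample assumed to vary as the WT libraries did, and without pool 2 it was 0.42 (adjusted p = 0.433 by edgeR).

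The difference between the pools labelled Rag1-/- set Sox10 apart from the other 7 genes. Its CPM was 19.5 times as high in pool 7 as in pool 2 (exact 95% interval 9.87 to 45.4, counting error only), whereas the ratio was between 0.359 for Pmel and 0.995 for Mlana in the others. For Pmel, Tyr, Tyrp1 and Mitf the interval lay below 1, and for Dct (0.644 to 1.07), Mlana and Slc45a2 it included 1. Over all genes tested, 4.21% had a CPM more than 10 times as high in pool 7, and the median ratio was 0.996. These ratios compare 1 library with 1 library and have no replicate check.

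Genes of Schwann cells differed between the same pools. All 13 genes of a Schwann cell list were higher in pool 7 than in pool 2, 5 of them by more than 10 times as counted and 4 when fewer than 3 counts in pool 2 are set to 3, with a median ratio of 3.64 against 0.622 for the 8 pigment-cell genes. Mal had 5 counts in pool 2 and 975 in pool 7, a ratio of 40.3 (exact interval 17.2 to 124). The cadherin gene Cdh19 had a ratio of 11.8 (6.35 to 24.7), and Prx, which encodes the myelin protein periaxin, one of 11.1 (8.55 to 14.6). Sox2 had a ratio of 10.8 (2.90 to 90.0, from 2 counts in pool 2), and Foxd3, a neural crest transcription factor, had 0 counts in pool 2 and 164 in pool 7, at least 11.3 times as high against a floor of 3 counts, with an exact interval that starts at 9.09. Mbp, Pmp22 and Erbb3, the most abundant of the list, are also used by other cells and had smaller gaps, with 190 and 385 CPM for Mbp, 102 and 316 CPM for Pmp22 and 47.6 and 114 CPM for Erbb3 in pools 2 and 7. The summed level of the list was 1143 to 1254 CPM in WT, 471 CPM in pool 2 and 1185 CPM in pool 7. Between the groups 0 of the 13 were called by edgeR, with a median log2 fold change of -0.59. Apart from Mbp, Pmp22 and Erbb3, these names were chosen after their values were seen. Other lists differed between these pools too. In pools 2 and 7 the summed level was 8328 and 19112 CPM for the keratinocyte list. It was 1704 and 2740 CPM for macrophages and Langerhans cells and 10.2 and 18.8 CPM for hair matrix and cortex. The fibroblast (8712 and 8484 CPM), leukocyte, ILC2 and T cell lists had lower sums in pool 7. So did the mast cell list (624 and 463 CPM), but most of its sum was Kit (534 and 336 CPM), which some ILCs also express. Apart from Kit and Hdc (47.0 and 30.7 CPM), every gene of that list was higher in pool 7, such as Cpa3 (10.2 and 21.2 CPM). The part of the Schwann cell genes in the Sox10 value was not tested.

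**Figure D2:**
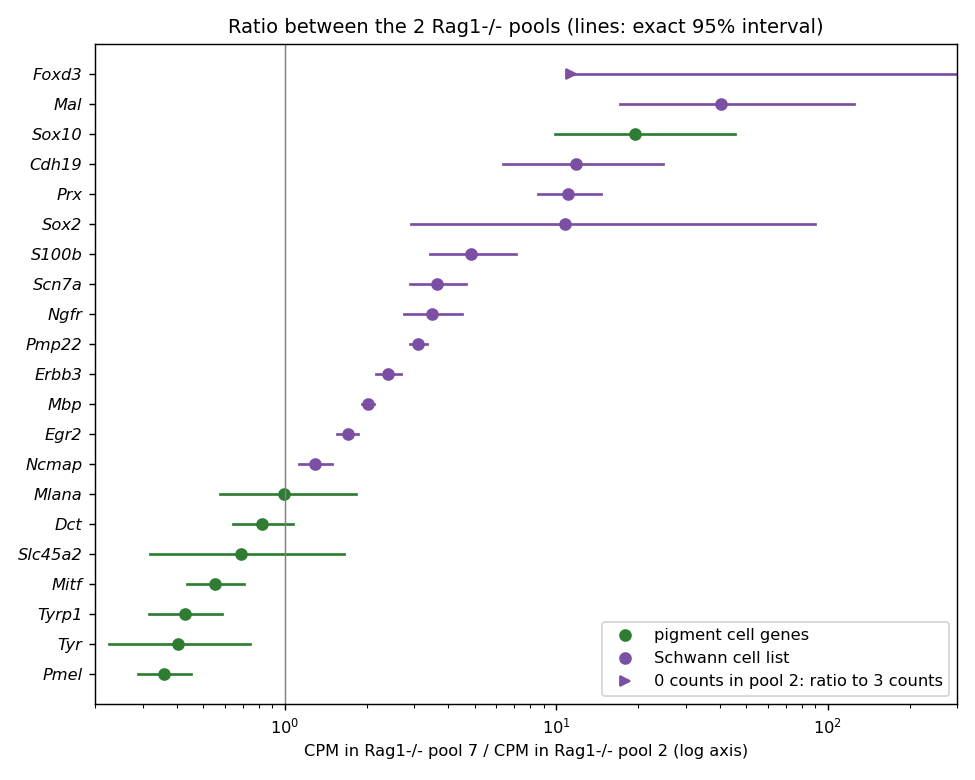
Ratio of CPM in pool 7 to that in pool 2, both labelled Rag1-/-, on a log axis, for the 8 pigment-cell genes and 13 Schwann cell genes, with exact 95% intervals that cover counting error only, and Foxd3, with 0 counts in pool 2, drawn from its ratio to 3 counts. Sox10, at 19.5, lies among the Schwann cell genes, and the other 7 pigment-cell genes lie at or below 1.

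The 6 genes of pigment making (Dct, Tyr, Tyrp1, Pmel, Mlana and Slc45a2) were also summed. Their summed level was 38.4, 27.8 and 47.9 CPM in WT pools 5, 6 and 13 and 39.1 and 20.9 CPM in pools 2 and 7. Pool 7 was the lowest library and pool 2 lay inside the WT range, so the groups, at 38.1 ± 10.1 CPM (SD, n = 3) and 30.0 ± 12.9 CPM (SD, n = 2), overlapped. Dct, Pmel and Tyrp1 made up most of the sum in every library, with Dct at 24.8% to 40.4%, Pmel at 27.3% to 40.6% and Tyrp1 at 16.6% to 22.4%. Dct held the largest share in WT pool 6 and pool 7, the libraries with the lowest sums, and Pmel held the largest share in the other 3. Mitf lay at 0.305 to 0.358 of the sum in 4 libraries and at 0.532 of it in WT pool 6. Sox10 ranged from 0.0254 of the sum in pool 2 to 0.930 of it in pool 7.

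**Figure D3:**
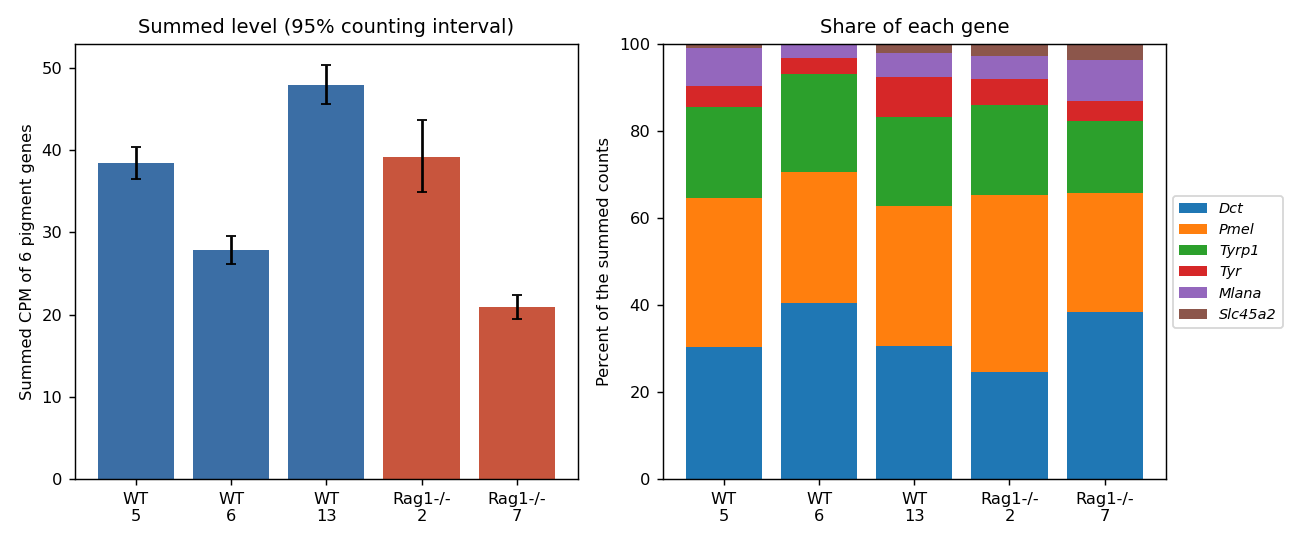
Left, summed CPM of the 6 genes of pigment making in each library, as bars from 0 with exact 95% intervals of the counts. Right, share of each gene in the summed counts of each library, in percent, stacked by gene. Pool 7 has the lowest sum, 20.9 CPM, and WT pool 13 the highest, 47.9 CPM, and Dct, Pmel and Tyrp1 fill most of every bar on the right.

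The spread within WT differed between the genes. The coefficient of variation over the 3 WT libraries ran from 14.2% for Mitf and 15.1% for Dct to 73.2% for Tyr and 116% for Slc45a2. Counting alone would give 4.22% for Sox10 to 24.4% for Slc45a2, and the pools also hold different mice. The genes with the fewest counts, Slc45a2, Tyr and Mlana, were the 3 with the widest spread. Their spread was above that from counting alone, at 116% against 24.4% for Slc45a2, 73.2% against 10.6% for Tyr and 55.2% against 10.9% for Mlana. For each of the other genes it was above counting too, for example 28.7% against 4.70% for Pmel.

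The genes whose pattern over the 5 libraries lay closest to the summed pigment-making genes were found by the root-mean-square difference of log2 CPM, each centred on its own mean. The summed genes themselves were left out of the ranking. Edn3, which encodes the melanocyte growth signal endothelin 3, came first among the other genes that passed the filter, at 0.0436. It was followed by the nuclear receptor gene Nr2f1 at 0.0489 and Cped1 at 0.0651. Adam22, a cell adhesion gene of the nervous system, lay at 0.0693 and the cohesion gene Esco2 at 0.0752. In pool 2 Edn3 had 30 counts and Nr2f1 had 22, and the ranking took no account of counting error. Edn3 lay at 3.76, 2.56 and 4.31 CPM in WT and at 3.73 and 1.98 CPM in pools 2 and 7, high and low in the same libraries as the sum, and was not called (log2 fold change -0.32, adjusted p = 0.698 by edgeR). Mitf was at rank 794 (0.290) and Sox10 at rank 18638 (1.77). Likeness over 5 libraries is a description with no test.

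Genes of melanosome building and transport were split in direction. Of 29 genes 28 were tested, 18 with a log2 fold change above 0 and 10 below, with a median of 0.28. Of the 28, 1 was called higher and 1 lower, shares near those over all genes tested (3.57% and 2.16%). Mreg, melanoregulin, which takes part in moving melanosomes, fell from 78.7 ± 11.0 CPM (SD, n = 3) to 29.7 ± 11.3 CPM (SD, n = 2; log2 fold change -1.35, SE 0.29, adjusted p = 0.0452 by edgeR). Hps6, a subunit of a complex for lysosome-related organelles that many cells use, rose from 4.27 ± 1.25 CPM (SD, n = 3) to 15.8 ± 3.52 CPM (SD, n = 2; log2 fold change 1.93, SE 0.35, adjusted p = 0.0327 by edgeR). Oca2, a melanosomal channel gene, was counted 3, 12 and 24 times in WT, compared with 7 and 6 times in pools 2 and 7, with no call (log2 fold change 0.26, adjusted p = 0.924 by edgeR). Gpr143, a melanosomal receptor gene, had at most 10 counts in any library and was not tested.

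Of the signals and regulators of pigment cells 18 genes were tested. In this list 1 was called higher and 5 lower, against 3.57% and 2.16% over all genes tested, with a median log2 fold change of -0.77. Kitl, the ligand that pigment cells and mast cells need, fell from 78.9 ± 8.01 CPM (SD, n = 3) to 35.4 ± 7.09 CPM (SD, n = 2; log2 fold change -1.11, SE 0.22, adjusted p = 0.0373 by edgeR). With all libraries thinned to the depth of pool 2, Kitl was not called (log2 fold change -0.79, adjusted p = 0.137 by edgeR). Tfap2b (-1.74), Tfap2a (-1.71), Met (-1.65) and Sox9 (-1.23) fell too on the log2 scale, with an adjusted p of 0.0306 for the first 3 and 0.0376 for Sox9 by edgeR. With Kitl, these 5 genes are also expressed by keratinocytes or hair follicle cells. Irf4, a regulator of Tyr in pigment cells and of many lymphocyte genes, rose from 21.1 ± 6.34 CPM (SD, n = 3) to 61.3 ± 21.2 CPM (SD, n = 2; log2 fold change 1.56, SE 0.30, adjusted p = 0.0363 by edgeR). With any 1 WT pool or pool 2 left out, no gene of the table was called by edgeR, and the adjusted p of these 6 genes, Mreg and Hps6 was then 0.0610 to 0.123. Without pool 7 Hps6 alone of these 8 lost its call (adjusted p = 0.0549 by edgeR). On the leukocyte scale Irf4 and Hps6 had log2 fold changes of -0.56 and -0.085, and on the keratinocyte scale Mreg, Kitl, Sox9 and Met lay at 0.20, 0.51, 0.34 and 0.081, with Tfap2a at -0.079 and Tfap2b at -0.21 and none of these 6 called. The keratinocyte and leukocyte lists moved between the same groups, with the sums given above, and their part in these values was not tested.

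The receptors Kit, Ednrb and Mc1r were not called by edgeR. Kit, the receptor of Kitl on pigment cells, mast cells and some ILCs, lay at 52.9, 179 and 127 CPM in WT and at 534 and 336 CPM in pools 2 and 7. Every value labelled Rag1-/- was above every WT value, and the log2 fold change was 1.88 (SE 0.48, adjusted p = 0.0627 by edgeR), with an adjusted p of 0.00164 by DESeq2. With a filter of 10 counts in every library it was 0.0452 by edgeR, and on the leukocyte scale the log2 fold change was -0.033. Ednrb, the endothelin receptor of pigment cells, lay at 11.1 ± 4.17 CPM (SD, n = 3) and 6.18 ± 0.665 CPM (SD, n = 2), with overlapping groups (log2 fold change -0.80, adjusted p = 0.249 by edgeR). Mc1r, the melanocortin receptor that sets the type of pigment, was counted 32, 15 and 16 times in WT, compared with 13 and 17 times in pools 2 and 7 (log2 fold change 0.76, adjusted p = 0.579 by edgeR).

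Genes of the hair shaft, whose matrix sits beside follicular melanocytes, mostly failed the filter on low counts. Of 17 hair matrix and cortex genes 16 were in the count table. Of these, 5 were tested and 0 were called by edgeR, with a median log2 fold change of -0.88. Tchh, trichohyalin of the inner root sheath, lay at 13.3, 13.9 and 39.4 CPM in WT and at 4.60 and 5.01 CPM in pools 2 and 7 (log2 fold change -2.16, adjusted p = 0.0621 by edgeR). Foxn1 lay at 5.25 to 11.0 CPM in WT and at 0.621 and 4.09 CPM in pools 2 and 7, and Msx2 at 6.44 to 7.47 CPM and at 2.98 and 4.44 CPM. Of the 5 genes tested, 4 were lower in both libraries labelled Rag1-/- than in every WT library, against 24.0% of all genes tested, and Krt32 overlapped.

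**Figure D4:**
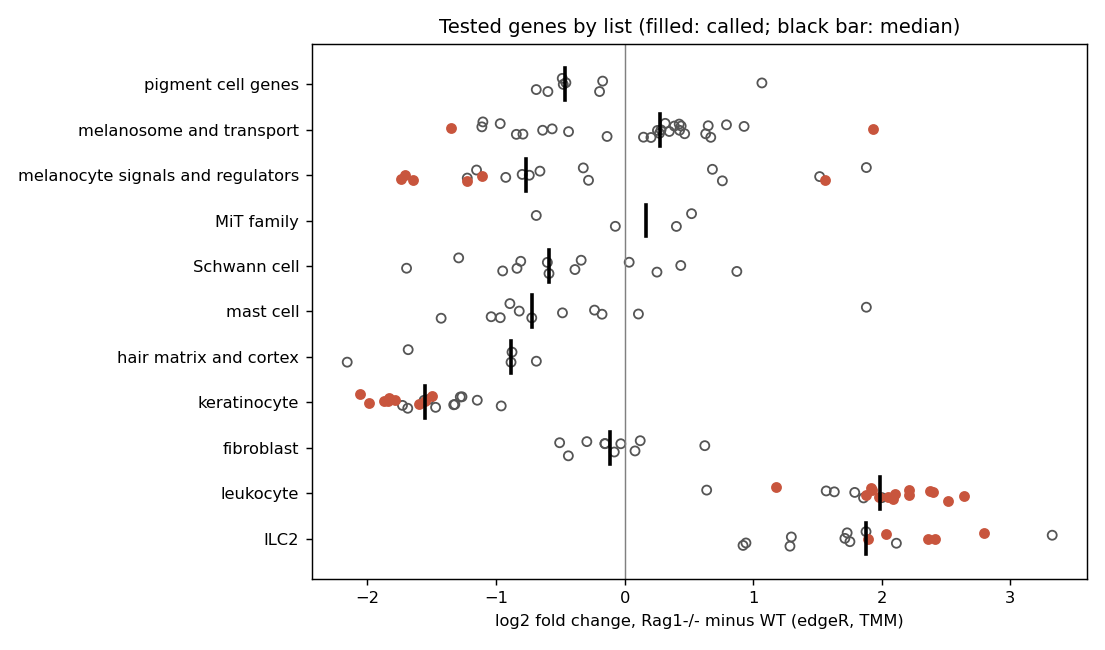
Fitted log2 fold change (labelled Rag1-/- over WT, edgeR, TMM scaling) of each tested gene in 11 of the gene lists, 1 list per line of the plot, with medians as black bars and called genes filled. The 8 pigment-cell genes lie around a median of -0.47 with none called, the keratinocyte genes all lie below 0 and the leukocyte genes all above 0.

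The scalings on cell type lists moved all genes and the pigment-cell genes with them. Scaling on the leukocyte list moved the median of all genes tested by -2.18 on the log2 scale, and the 8 genes then had log2 fold changes between -2.82 (Mitf) and -0.98 (Slc45a2). Scaling on the keratinocyte list moved it by 1.69, and the 8 genes then had log2 fold changes between 0.55 (Sox10) and 2.67 (Slc45a2). Relative to the median of all genes, 7 genes lay between -0.66 (Mitf) and -0.28 (Pmel) on the leukocyte scale, with Slc45a2 at 1.18. On the keratinocyte scale Slc45a2 lay at 0.97 and Pmel at 0.05. The other 6 lay between -1.15 (Sox10) and -0.20 (Mlana), and these 6 were below the median of all genes on both scales. Each scaling moves all genes of a library together, so these positions are no check separate from the TMM fit.

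**Figure D5:**
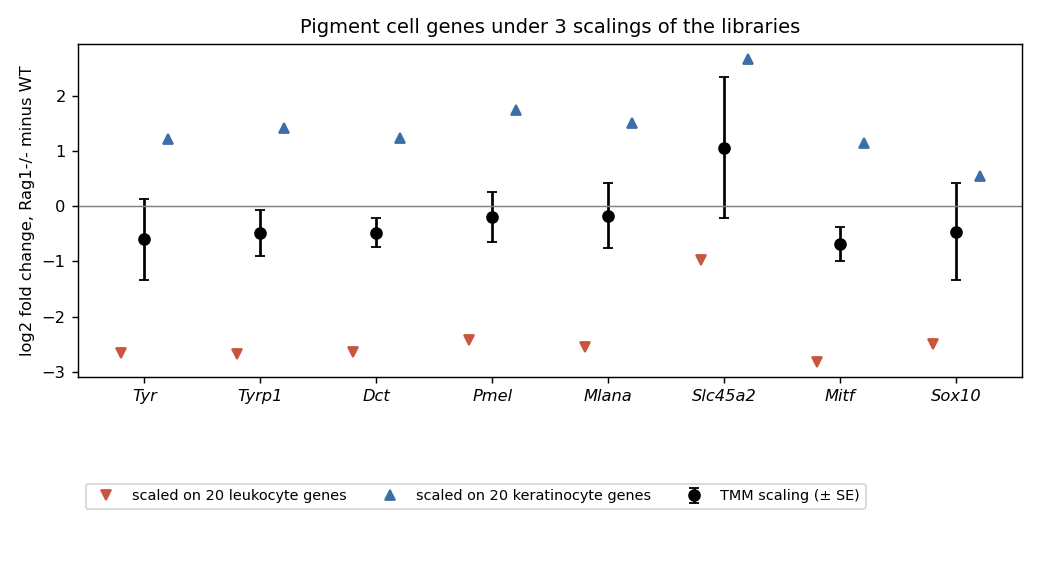
Log2 fold change (labelled Rag1-/- over WT) of each of the 8 genes under 3 scalings of the libraries, on all genes (TMM, black points with SE), on the leukocyte list (red triangles) and on the keratinocyte list (blue triangles). All 8 lie below 0 on the leukocyte scale and above 0 on the keratinocyte scale, with all genes tested shifted by -2.18 and 1.69.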

How the data were processed

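Libraries were made with TruSeq v2 from pools of sorted cells. The authors aligned reads to GRCm38 with STAR 2.5, counted them per gene with featureCounts 1.5.0-p1 and deposited the counts without normalization, on which every main result rests. The labels and the methods name different Ensembl releases for the counting. The authors also deposited a normalized signal per gene, scaled per library (DESeq2 1.8.2 is named), which was used for 1 alternative only. Libraries were grouped by their labels.

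Counts were fitted by the quasi-likelihood test of edgeR 4.0.16 under R 4.3.3, after filterByExpr and TMM scaling, with 3 residual degrees of freedom, and p-values were adjusted over all 19011 genes tested. The code was tested on simulated data. CPM (counts-per-million) is relative to the library total. Exact 95% intervals cover counting error only. The 8 genes and the lists were chosen with earlier results of these data known. The genes named were the 8, every called gene of the melanosome, signal, MiT, Schwann cell and hair lists (up to 4 per direction, or the 3 most abundant where none was called), Kit, Mc1r, Oca2, Ednrb, Krt14, Ptprc and the 5 nearest profiles, and Sox9 and the genes marked so were added after their values were seen. Exon lengths came from GENCODE M21 and promoters from a RefSeq table of GRCm38.p6. The alternatives were DESeq2 1.42.0, limma 3.58.1 on log2(signal + 1), other scalings, filters, robust estimation, equal depth and leaving out each library. Some genes of the Schwann cell list are not reported here and were left out of its values. The lists of mast cells, T cells, macrophages and Langerhans cells, and fibroblasts are given in the closing section.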

Additional observations from a re-analysis of the deposited data

How the results depend on the processing

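Over all genes, 1090 were called, against 2453 with DESeq2, 2645 with no filter, 12593 with leukocyte scaling, 11402 with keratinocyte scaling, and 0 to 2409 with 1 library left out by edgeR. The 0 came without WT pool 5, 6 or 13 or without pool 2, where 3521 to 5200 genes had an unadjusted p below 0.05, and the 2409 came without pool 7. The share of calls that were higher was 62.3%, against 48.8% with DESeq2, 43.7% with no filter, 33.8% without pool 7, 52.9% with limma, 0.127% with leukocyte scaling and 99.4% with keratinocyte scaling. Of the 8 pigment-cell genes, 0 were called, 7 with leukocyte scaling, 3 with keratinocyte scaling, and 0 to 1 with 1 library left out, the 1 being Sox10 without pool 7. With leukocyte scaling the log2 fold changes were -2.64 (Dct), -2.66 (Tyr), -2.68 (Tyrp1), -2.43 (Pmel), -2.56 (Mlana), -0.98 (Slc45a2, reversed), -2.82 (Mitf) and -2.50 (Sox10), with Hps6 at -0.085, Irf4 at -0.56 and Kit at -0.033. With keratinocyte scaling they were 1.25, 1.22, 1.41, 1.76, 1.51, 2.67, 1.15 and 0.55 in the same order. Mreg was then at 0.20, Kitl at 0.51, Sox9 at 0.34, Met at 0.081, Tfap2a at -0.079 and Tfap2b at -0.21, with none of these 6 called. At equal depth Pmel was at 0.18, Mlana at -0.84, Sox10 at -0.92 and Kitl at -0.79 (no longer called), and Slc45a2 had no value. With limma Sox10 was at -1.75 and Slc45a2 at 1.98. With 1 library left out the ranges were -0.57 to -0.35 (Dct), -1.27 to 0.16 (Tyr), -1.13 to -0.05 (Tyrp1), -1.03 to 0.31 (Pmel), -0.55 to 0.23 (Mlana), 0.48 to 2.47 (Slc45a2), -1.11 to -0.39 (Mitf) and -3.99 to 0.42 (Sox10). A fit without pool 2 or pool 7 leaves 1 library labelled Rag1-/-, assumed to vary as the others do. Apart from the scalings named, the causes were not tested. The filter of 10 counts in every library left no value for Sox10 and Slc45a2. No paired analysis was possible because the groups share no replicate numbers. In pool 2, the library with the lowest total, Slc45a2, Sox10 and Tyr had 9, 8 and 19 counts. The low Sox10 value there remained in CPM, at 0.994 CPM against 11.4 to 19.4 CPM in the other libraries.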

Other observations

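Mast cells, which also express Mitf and Kit, were looked at with a list of 11 genes, Kit among them. None of the 11 was called by edgeR, and 9 of 11 had a log2 fold change below 0, with a median of -0.72. The carboxypeptidase gene Cpa3 lay at 29.0 ± 5.20 CPM (SD, n = 3) in WT and 15.7 ± 7.80 CPM (SD, n = 2) in those labelled Rag1-/- (log2 fold change -0.82, adjusted p = 0.193 by edgeR), and the chymase gene Mcpt4 at 39.2 ± 3.76 CPM and 22.7 ± 13.7 CPM (log2 fold change -0.72, adjusted p = 0.276 by edgeR). These names were chosen after their values were seen.

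Of 9 T cell genes tested 4 were called higher (Cd3g, Cd247, Trac and Trbc2), with a median log2 fold change of 1.18, in libraries from mice without mature T cells by their label. The summed level of the T cell list was 56.2 to 88.3 CPM in WT and 241 and 212 CPM in pools 2 and 7. Without any 1 WT pool or pool 2, no gene of the table was called. Of 10 macrophage and Langerhans cell genes and of 10 fibroblast genes, 0 were called by edgeR, with median log2 fold changes of -0.04 and -0.12.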
